A study of Caenorhabditis elegans with 12 samples.

Results

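Cilium and intraflagellar transport genes of Caenorhabditis elegans were followed across sex and feeding state. The set was a list of 41 genes, and each gene was represented by the probe set that the array annotation assigns to it alone, the one with the highest mean where there were several. Of the 41 genes 40 had such a probe set, out of 17118 genes on the array, and ift-20 had none. Whole-body RNA of N2, the wild-type laboratory strain, was measured on 12 Affymetrix C. elegans Genome Arrays, 1 per sample. The groups were fasted males, fed males, fasted hermaphrodites and fed hermaphrodites, with 3 arrays each. Fasted worms were kept without food for 48 h from day 2 of adulthood, fed worms had food throughout, and all were collected on day 4. Every group, controls included, was grown at 20 C and carried FUdR at 200 ug/ml, a drug that blocks DNA synthesis and so the development of offspring. Males were separated from hermaphrodites by filtration as young adults.

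In C. elegans the only ciliated cells are sensory neurons, whose dendrites end in a cilium that is open to the environment or set in the cuticle. Cilia are built by intraflagellar transport (IFT), in which kinesin motors carry trains of IFT-A and IFT-B proteins with their cargo to the tip and a dynein brings them back. The BBSome travels with these trains and links them to membrane proteins, the transition zone at the base gates entry, and the factor DAF-19 switches on many of these genes. Males have additional ciliated neurons in the head and tail that serve mating. Worm sperm crawl and have no flagellum.

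The values are log2 of the deposited signal, written below as levels, and a change is a difference of 2 group means on that scale. In the linear model of all 12 arrays (limma), a change was called at a Benjamini-Hochberg adjusted p under 0.05 over the 15913 probe sets that passed a filter on low values (above log2 6.01 on at least 3 arrays). The sex labels were checked on genes of known sex bias. The polycystin gene pkd-2, which marks male ciliated neurons, stood at 9.89 in fed males and 4.41 in fed hermaphrodites, and the oocyte yolk receptor gene rme-2 stood at 6.79 in fed males and 12.76 in fed hermaphrodites. The median of all probe sets lay between 7.01 and 7.05 on arrays of fed males and between 6.41 and 6.56 on those of fed hermaphrodites. Under median centring the median sex change of the probe sets tested in fed worms was therefore -0.41, against 0.13 on the deposited scale. Called probe sets were split into 6191 higher and 5713 lower in fed males than in fed hermaphrodites, and into 4168 higher and 7452 lower after median centring. In fasted worms these splits were 6039 and 5206, and 3799 and 7785 after median centring. For fasting, the 3029 rises and 1323 falls in males became 1298 and 1636 after median centring and 2152 and 1650 after quantile normalization, and the 910 rises and 906 falls in hermaphrodites became 545 and 1024 after median centring.

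The cilium genes gave dim signals in whole worms. Of the 40 genes 22 passed the filter and were tested, and 18 did not pass it. Of the 22, 12 had arrays above the filter value in both sexes. Another 9 had them in males only (che-13, ifta-2, che-11, dyf-2, bbs-1, osm-3, dyf-5, dyf-18 and che-12), and mks-6 had them in hermaphrodites only. Passing through 1 sex alone favours a difference between the sexes, so counts and medians of sex differences over the 22 describe these genes and support nothing about the list. By role, the filter passed 5 of 13 IFT-B genes with a probe set, 3 of 4 IFT-A genes, 2 of 6 BBSome genes, 5 of 6 motor genes and 1 of 4 transition zone genes. Only hyls-1 passed a filter at the 60th percentile of all values (log2 7.73).

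**Figure D1:**
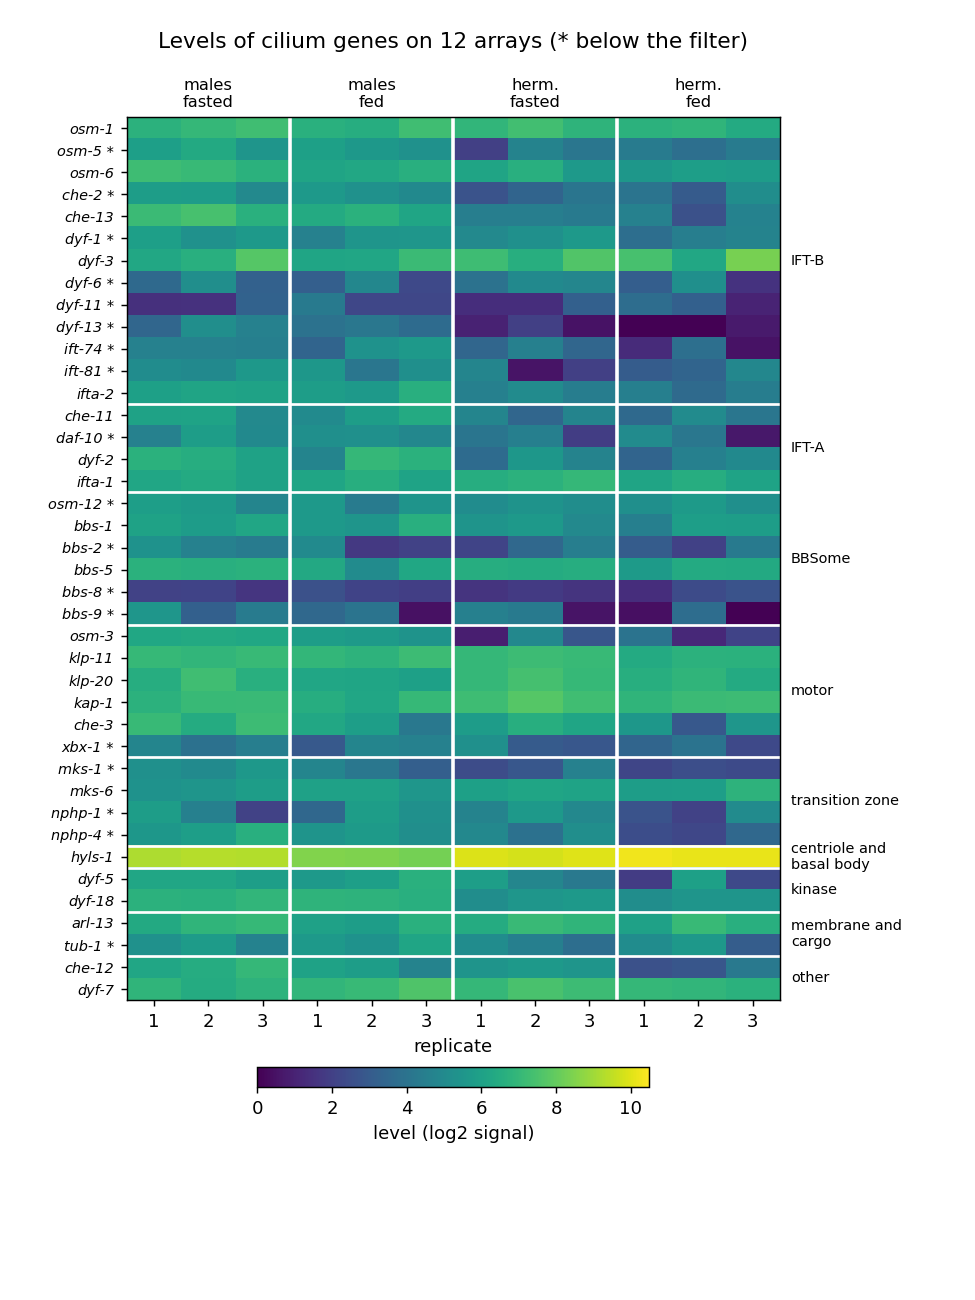
Level (log2 signal, colour) of 40 cilium genes on 12 arrays, with genes down the page by role and arrays across by group and replicate; an asterisk marks the 18 genes below the filter. Each row is 1 probe set, so rows are to be read across and not against each other; hyls-1 is the bright row, and rows such as che-13 and osm-3 are brighter in the 6 male arrays than in the 6 hermaphrodite arrays.

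The first comparison asks how males differ from hermaphrodites in these genes. In fed worms che-13, ifta-2, che-11, dyf-2, osm-3, dyf-5, dyf-18 and che-12 were higher in males, by log2 changes of 1.39 to 3.20, and hyls-1 was 3.41-fold lower in males. All 8 of the higher genes passed the filter through male arrays alone, so these changes are set against hermaphrodite levels below the filter value, and they shrink to between 0.52 and 0.87 with a pseudocount at the 40th percentile of the signal. These are 9 of the 22 genes tested (40.9%), while 74.8% of all probe sets tested were called in this comparison. The share among these 22 genes was thus below that of all probe sets tested, which were not matched to these dim genes in signal. In fasted worms 7 genes were higher in males (osm-6, che-13, ifta-2, che-11, dyf-2, osm-3 and dyf-18) and hyls-1 was lower, 8 of 22 (36.4%) against 70.7% of all probe sets. The arrays of the sexes did not overlap for 9 of the 22 genes in fed worms (78.3% of all probe sets) and for 16 in fasted worms (74.3% of all probe sets). Of the 12 genes with signal above the filter in both sexes, none was higher and hyls-1 was lower in fed males, and osm-6 was higher and hyls-1 lower in fasted males. In RNA of whole worms more cells of a type and more RNA per cell cannot be told apart.

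**Figure D2:**
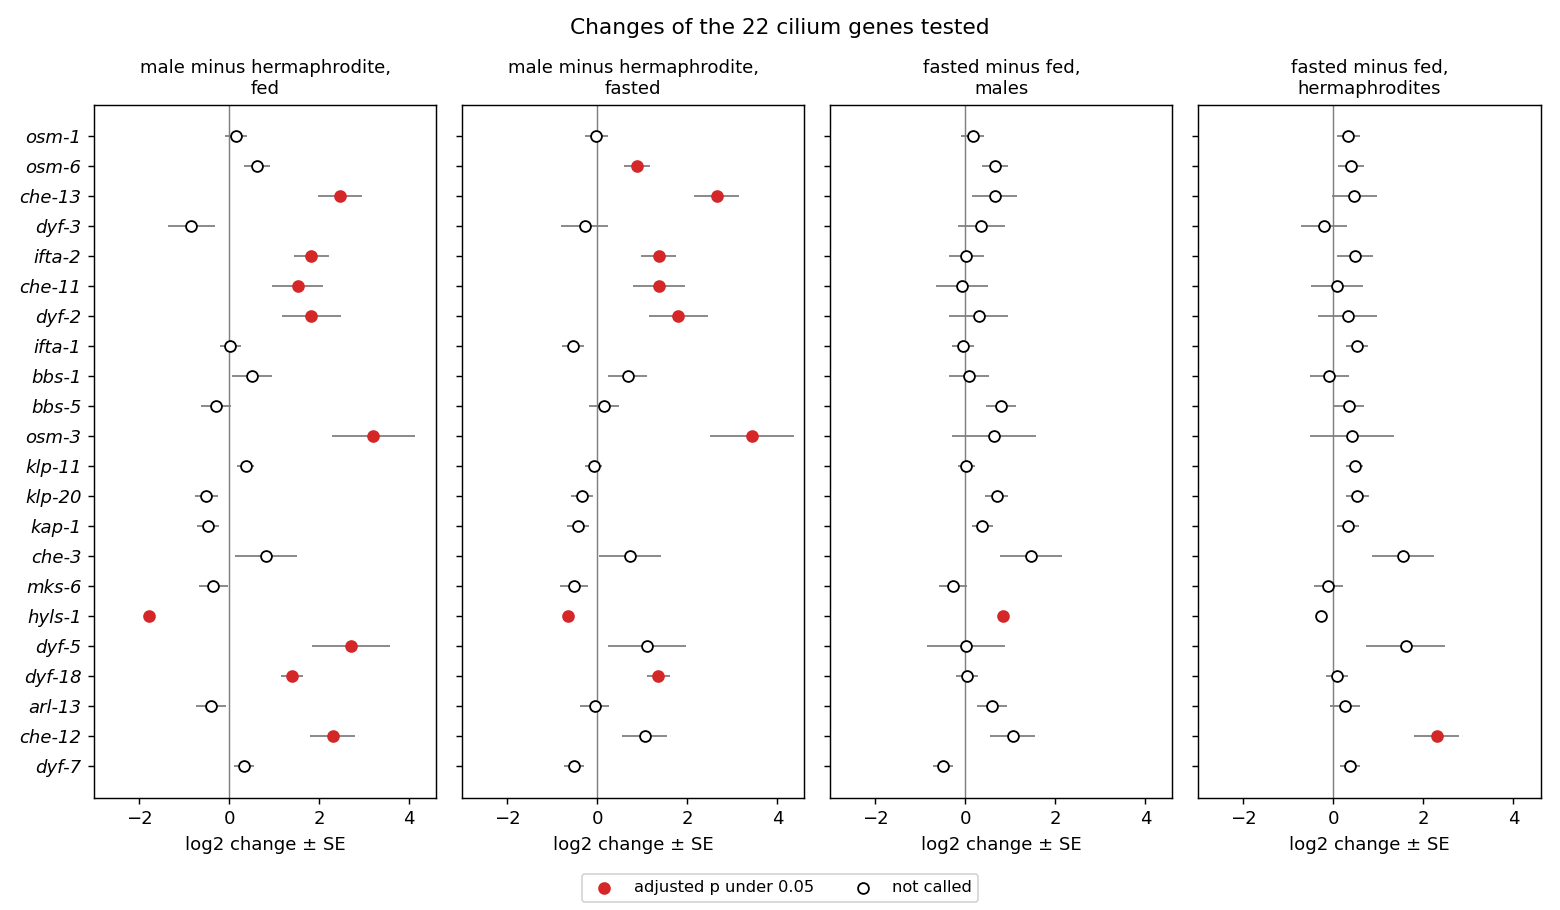
Log2 change with its standard error (SE) of the 22 cilium genes tested, for males minus hermaphrodites when fed and when fasted and for fasted minus fed worms in males and in hermaphrodites; filled points are called at an adjusted p under 0.05 (limma). The sex panels hold 9 and 8 called genes (40.9% and 36.4%, against 74.8% and 70.7% of all probe sets), and each fasting panel holds 1, hyls-1 in males and che-12 in hermaphrodites.

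Among the motors, osm-3 was called higher in males in both feeding states, while the subunits of the other kinesin did not pass the test on the deposited scale. The osm-3 gene passed the filter through the 3 fasted male arrays alone. OSM-3 is the kinesin that carries IFT trains along the outer part of the cilium. Its levels were 5.85, 5.71 and 5.39 in fed males, against 4.01, 1.22 and 2.10 in fed hermaphrodites. In fasted worms they were 6.24, 6.38 and 6.25 in males, against 0.88, 4.91 and 2.79 in hermaphrodites. All male arrays lay above all hermaphrodite arrays, and the hermaphrodite arrays spread widely near the lower end of the scale. The change was 3.20 ± 0.93 (SE) in fed worms (adjusted p = 0.00754, limma) and 3.43 ± 0.93 in fasted worms (adjusted p = 0.00544). The same pseudocount, which compresses dim values, gave changes of 0.68 and 0.90, both called.

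Kinesin-II, which works beside OSM-3 in the inner part of the cilium, is made of the motors KLP-11 and KLP-20 and the accessory protein KAP-1. The klp-20 levels were 6.21, 6.16 and 5.98 in fed males, against 6.59, 6.87 and 6.40 in fed hermaphrodites. These arrays did not overlap, yet the change of -0.50 ± 0.25 was not called (adjusted p = 0.0861). The kap-1 levels were 6.55, 6.22 and 7.03 in fed males, against 6.86, 7.17 and 7.19 in fed hermaphrodites, and the change of -0.47 ± 0.24 was not called either (adjusted p = 0.0956). The groups overlap for kap-1. After median centring klp-20 was at -1.04 (adjusted p = 0.00126) and kap-1 at -1.01 (adjusted p = 0.00187), both called lower in fed males. The kap-1 change was also called on hybridization controls (-0.68, adjusted p = 0.0263) and without fed male replicate 3 (-0.68, adjusted p = 0.0243). In fasted worms the changes were -0.08 for klp-11, -0.34 for klp-20 and -0.42 for kap-1, none of them called. All 3 were called lower in fasted males after median centring (-0.71, -0.97 and -1.05) and quantile normalization (-0.67, -0.90 and -0.97). A second probe set of klp-20 gave -0.05 in fed and 0.25 in fasted worms. The klp-11 change was 0.37 ± 0.19 in fed worms (adjusted p = 0.0901), was called without the variance trend (adjusted p = 0.0382), and was -0.15 after quantile normalization. Probe sets of klp-11, klp-20 and kap-1 are of the type that shares probes with other sequences.

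The heavy chain of the dynein that returns trains to the cell body is encoded by che-3. Its levels were 6.30, 5.87 and 4.19 in fed males, against 5.54, 2.88 and 5.50 in fed hermaphrodites, and the change of 0.82 ± 0.69 was not called (adjusted p = 0.296). The groups overlapped, with 1 array of each sex far below the rest of its group. The light intermediate chain gene xbx-1 lay below the filter on all 12 arrays.

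IFT-B proteins form the part of the train that binds cargo such as tubulin on the way out. The IFT-B gene che-13 had levels of 6.42, 6.71 and 6.16 in fed males, against 4.62, 2.62 and 4.66 in fed hermaphrodites. In fasted worms the levels were 7.14, 7.44 and 6.66 in males, against 4.48, 4.49 and 4.32 in hermaphrodites. Every male array was above every hermaphrodite array. The change was 2.46 ± 0.50 in fed worms (adjusted p = 0.000642) and 2.65 ± 0.50 in fasted worms (adjusted p = 0.000401), and 0.87 and 1.22 with the pseudocount at the 40th percentile. A dimmer probe set of che-13, below the filter, gave 1.10 in fed and -0.18 in fasted worms.

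The IFT-B gene ifta-2, a small GTPase of the Rab family, had levels of 5.84, 5.65 and 6.61 in fed males, against 4.54, 3.65 and 4.44 in fed hermaphrodites. The groups did not overlap and the change was 1.82 ± 0.39 (adjusted p = 0.00102). In fasted worms it was 1.37 ± 0.39 (adjusted p = 0.00735), and that call ended after median centring (0.74, adjusted p = 0.108) and quantile normalization (0.84, adjusted p = 0.072). The core IFT-B gene osm-6 stood at 7.24, 7.08 and 6.72 in fasted males, against 6.13, 6.63 and 5.63 in fasted hermaphrodites. The groups did not overlap, with a change of 0.88 ± 0.29 (adjusted p = 0.0158). This call ended without fasted hermaphrodite replicate 3 (0.63, adjusted p = 0.0732) or fasted male replicate 1 (0.77, adjusted p = 0.0611), and under the 3 other scalings, with 0.25 after median centring, 0.23 after quantile normalization and 0.71 on hybridization controls.

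The other IFT-B genes tested were not called between the sexes on the deposited scale. The osm-1 gene stood at 6.68, 6.55 and 7.26 in fed males and 6.73, 6.89 and 6.43 in fed hermaphrodites (change 0.15 ± 0.25). In fasted worms its change was -0.02, and it was called lower in males after median centring (-0.64, adjusted p = 0.0278) and quantile normalization (-0.61, adjusted p = 0.045). The dyf-3 gene, needed for the train to form fully, spread widely within both groups, with 6.19, 6.22 and 7.17 in fed males and 7.46, 6.29 and 8.34 in fed hermaphrodites. Its change of -0.84 ± 0.52 was not called (adjusted p = 0.16). It was called after median centring (-1.38, adjusted p = 0.0378) and without fed hermaphrodite replicate 2 (-1.37, adjusted p = 0.0253).

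IFT-A proteins serve the return trip and the entry of membrane proteins. Both dyf-2 and che-11 were higher in males, while ifta-1 was not called. The dyf-2 levels were 4.75, 6.99 and 6.70 in fed males, against 3.39, 4.58 and 5.0 in fed hermaphrodites. In fasted worms they were 6.72, 6.56 and 6.06 in males, against 3.67, 5.55 and 4.71 in hermaphrodites. Fed groups overlapped through 1 male array, and fasted groups did not overlap. The change was 1.82 ± 0.65 in fed worms (adjusted p = 0.0228) and 1.80 ± 0.65 in fasted worms (adjusted p = 0.0258). The fed call ended without fed hermaphrodite replicate 1 (1.36, adjusted p = 0.0939) or without fed male replicates 2 (1.40, adjusted p = 0.0988) or 3 (1.54, adjusted p = 0.0803). The fasted call ended without fasted hermaphrodite replicates 1 (1.31, adjusted p = 0.109) or 3 (1.83, adjusted p = 0.0502) and without fasted male replicates 1 (1.66, adjusted p = 0.0729) or 2 (1.74, adjusted p = 0.0637). Both dyf-2 calls ended after median centring and quantile normalization, with adjusted p between 0.0834 and 0.111. A second probe set of dyf-2, below the filter, gave 0.14 in fed worms and -1.54 in fasted worms.

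The che-11 levels were 5.04, 5.85 and 6.43 in fed males, against 3.58, 5.06 and 4.11 in fed hermaphrodites, with the groups overlapping at 1 array. The change was 1.52 ± 0.57 in fed worms (adjusted p = 0.028) and 1.37 ± 0.57 in fasted worms (adjusted p = 0.0471). These were the least stable of the calls. The fed call ended under each of the 3 other scalings (adjusted p = 0.141 after median centring, 0.152 after quantile normalization and 0.0657 on hybridization controls). It also ended without fed hermaphrodite replicates 1 (1.19, adjusted p = 0.104) or 3 (1.46, adjusted p = 0.0644) and without fed male replicates 2 (1.49, adjusted p = 0.0656) or 3 (1.20, adjusted p = 0.11). The fasted call held in 12 of 23 alternatives. It ended under the same 3 scalings (0.261, 0.194 and 0.0942), without the filter (0.0603) and with the replicate block (0.0638). It ended as well without fasted hermaphrodite replicates 2 (0.94, adjusted p = 0.172) or 3 (1.57, adjusted p = 0.0506), without fasted male replicates 1 (1.19, adjusted p = 0.132) or 2 (1.18, adjusted p = 0.135), and without fed hermaphrodite replicate 3 (adjusted p = 0.0542) or fed male replicate 2 (adjusted p = 0.0601). The ifta-1 levels were 6.17, 6.57 and 6.11 in fed males and 6.13, 6.54 and 6.09 in fed hermaphrodites, with a change of 0.03 that was -0.595 and called after quantile normalization (adjusted p = 0.0293). In fasted worms ifta-1 stood at 6.21, 6.41 and 6.05 in males, against 6.56, 6.75 and 7.01 in hermaphrodites. Male arrays lay below hermaphrodite arrays there, and the change of -0.55 ± 0.24 was not called (adjusted p = 0.0603). It was called after median centring (-1.17, adjusted p = 0.000525), after quantile normalization (-1.12, adjusted p = 0.000663), with the pseudocounts at the 40th (-0.32, adjusted p = 0.0416) and 20th percentile (adjusted p = 0.0478) and without the variance trend (adjusted p = 0.0247).

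Of the protein kinases that limit cilium length, dyf-18 showed a sex difference with little spread between arrays. Its levels were 6.84, 6.79 and 6.62 in fed males, against 5.13, 5.48 and 5.46 in fed hermaphrodites. In fasted worms they were 6.76, 6.68 and 6.93 in males, against 5.13, 5.50 and 5.67 in hermaphrodites. All male arrays lay above all hermaphrodite arrays in both states. The change was 1.39 ± 0.25 in fed worms (adjusted p = 0.000225) and 1.36 ± 0.25 in fasted worms (adjusted p = 0.000303), and both calls held in the 23 alternatives that tested the gene. The related kinase gene dyf-5 had levels of 5.69, 5.91 and 6.67 in fed males, against 1.87, 5.98 and 2.31 in fed hermaphrodites. Fed hermaphrodite replicate 2 lay within the male range. The change was 2.71 ± 0.87 (adjusted p = 0.0132), 4.00 without that array, and not called without fed hermaphrodite replicates 1 (1.95, adjusted p = 0.06) or 3 (2.17, adjusted p = 0.0547).

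**Figure D3:**
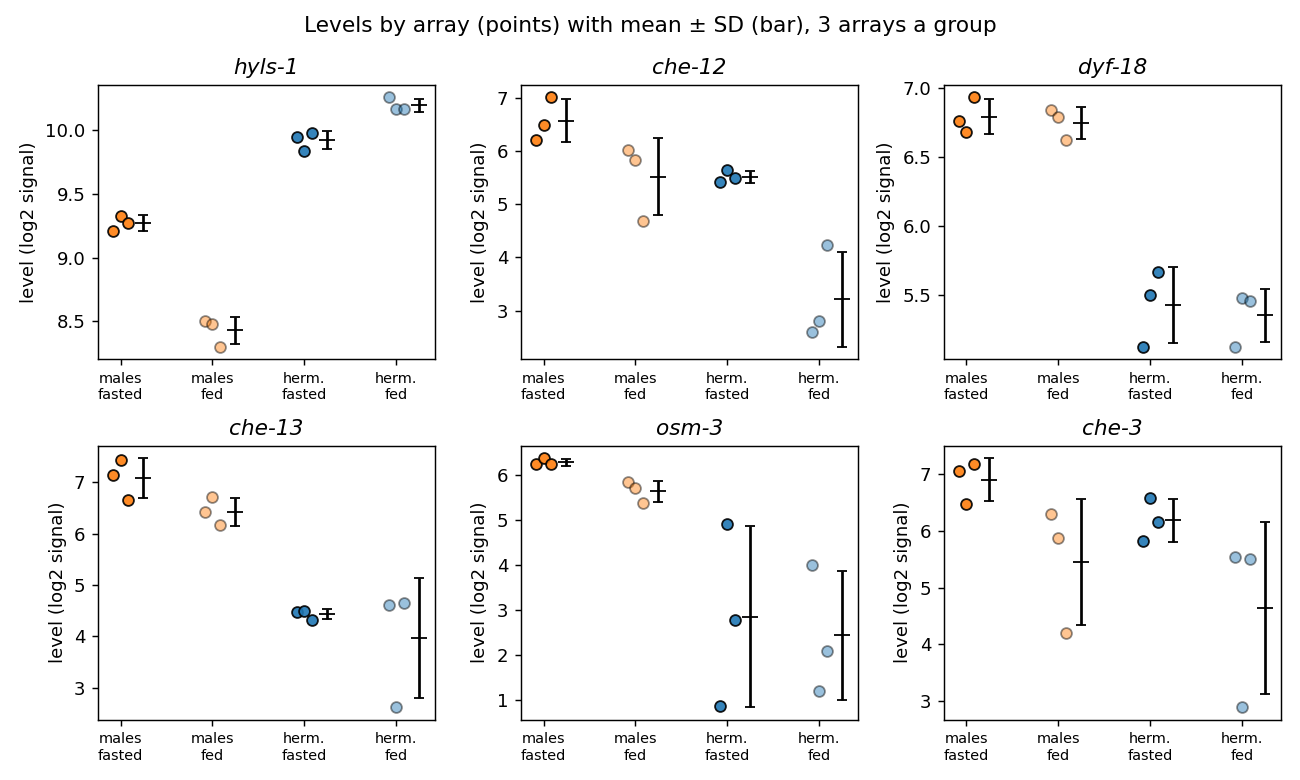
Levels (log2 signal) of hyls-1, che-12, dyf-18, che-13, osm-3 and che-3 on each array (points), with the group mean ± SD (bar, 3 arrays a group). Each panel has its own axis; dyf-18, che-13 and osm-3 part by sex, hyls-1 is lower in males and higher in fasted than in fed males, and che-12 is lowest in fed hermaphrodites.

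The che-12 gene encodes a HEAT repeat protein of the cilia of amphid and phasmid neurons, the main chemosensory organs. Its levels were 6.03, 5.83 and 4.69 in fed males, against 2.60, 2.81 and 4.24 in fed hermaphrodites. The groups did not overlap, and the change was 2.30 ± 0.50 (adjusted p = 0.00117). In fasted worms it was 1.06 ± 0.50 and not called (adjusted p = 0.0772), though it was called with the pseudocounts at the 40th (0.54, adjusted p = 0.00786) and 20th percentile (0.81, adjusted p = 0.0169), with only the arrays compared (adjusted p = 0.014) and without fed hermaphrodite replicate 3 (adjusted p = 0.0393). The zona pellucida domain gene dyf-7, whose protein anchors sensory dendrite tips during development, stood at 6.85, 6.48 and 6.77 in fasted males, against 7.01, 7.47 and 7.19 in fasted hermaphrodites. All male arrays were lower, and the change of -0.52 ± 0.22 just missed the threshold (adjusted p = 0.0551). A second probe set of dyf-7 gave -1.11 (adjusted p = 0.00673 in the fit without the filter), and the change was called on the 3 other scalings, with -1.14 after median centring (adjusted p = 0.00035), -1.09 after quantile normalization (adjusted p = 0.000957) and -0.69 on hybridization controls (adjusted p = 0.0315). It was called in 10 of 23 alternatives, among them without fasted hermaphrodite replicate 1 (-0.62, adjusted p = 0.044) or fed male replicate 3 (adjusted p = 0.0366).

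The BBSome genes tested, the ciliary membrane GTPase gene arl-13 and the transition zone gene mks-6 were not called between the sexes. The BBSome gene bbs-5 stood at 6.32, 5.06 and 6.27 in fed males and 5.71, 6.41 and 6.39 in fed hermaphrodites, and bbs-1 at 5.67, 5.47 and 6.64 in fed males and 4.52, 5.90 and 5.85 in fed hermaphrodites. The groups overlap for both. The arl-13 change was -0.40 ± 0.33 and that of mks-6 was -0.35 ± 0.32 in fed worms. After median centring and after quantile normalization bbs-5, arl-13 and mks-6 were called lower in fed males, with changes between -0.83 and -0.95.

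The split of the calls thus depended on how arrays were scaled. In fed worms 8 genes were higher and 1 lower in males on the deposited scale, against 6 higher and 7 lower after either median centring or quantile normalization, and 7 and 2 on hybridization controls. In fasted worms the split was 7 and 1, against 3 and 8 after either of these scalings and 5 and 2 on hybridization controls. The hyls-1 gene was called lower in males under the 4 scalings in both feeding states. The calls of che-13, osm-3 and dyf-18 also held under the 4 scalings, in genes that passed the filter through males alone.

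The 18 genes below the filter were examined in the fit without it, over 22548 probe sets. Their signals are dim enough that they may be background, since detection calls were not used here. Of all 40 genes 12 were called higher and 1 lower in males in each feeding state, where 54.9% of all probe sets were called in fed worms and 51.8% in fasted worms. The IFT-B gene dyf-13, which supports tubulin transport, had levels of 3.96, 4.15 and 3.66 in fed males, while in fed hermaphrodites it was listed at 0, 0 and 0.74. The groups did not overlap (adjusted p = 0.000261), and no fold is given since 2 of the hermaphrodite values are at the floor. The transition zone gene nphp-4 stood at 5.45, 5.71 and 5.18 in fed males, against 2.48, 2.23 and 3.54 in fed hermaphrodites, without overlap, and the change was 2.70 ± 0.52 (adjusted p = 0.000526). Its second probe set gave 1.29 (adjusted p = 0.0214). The transition zone gene mks-1 also was higher in fed males (1.66 ± 0.64, adjusted p = 0.0411), as was ift-74 (2.90 ± 0.84, adjusted p = 0.00942), although its groups overlapped, and it was not called in fasted worms (0.76). In fasted worms the IFT-B genes osm-5 (2.33 ± 0.62, adjusted p = 0.00609), che-2 (2.16 ± 0.59, adjusted p = 0.00764) and ift-81 (2.79 ± 0.90, adjusted p = 0.0192) were called. So were dyf-13 (adjusted p = 0.000789), mks-1 (1.99, adjusted p = 0.0183) and nphp-4 (1.355, adjusted p = 0.0415). The second probe set of nphp-4 was called there too (2.30, adjusted p = 0.000501). Those of osm-5 (1.24, adjusted p = 0.204) and ift-81 (0.715, adjusted p = 0.543) were not. The remaining genes below the filter (dyf-1, dyf-6, dyf-11, daf-10, osm-12, bbs-2, bbs-8, bbs-9, xbx-1, nphp-1 and tub-1) were not called between the sexes.

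Over all 40 genes, the median level per array ran from 5.97 to 6.12 in fasted males and from 5.57 to 5.71 in fed males, against 4.87 to 5.16 in fasted hermaphrodites and 4.44 to 4.76 in fed hermaphrodites. By this median male arrays were higher than hermaphrodite arrays, and fasted arrays higher than fed arrays of the same sex. The summed signal of the 40 genes, in which bright genes such as hyls-1 weigh most, ran from 3231 to 3395 in fasted males and from 2441 to 2772 in fed males, against 2841 to 3142 in fasted hermaphrodites and 2653 to 2932 in fed hermaphrodites, so the sexes overlapped when fed. The median of all probe sets moved too, though less between the sexes. The cilium median lay 1.32 to 1.44 below it in fed males and 1.65 to 2.05 below it in fed hermaphrodites.

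**Figure D4:**
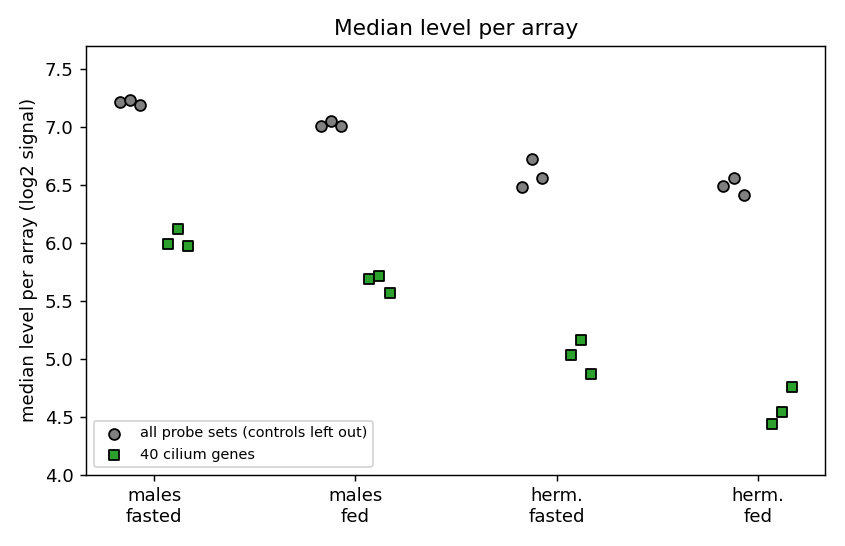
Median level per array (log2 signal) of all probe sets (circles) and of the 40 cilium genes (squares) in the 4 groups, 3 arrays each. The cilium medians run from 4.44 on a fed hermaphrodite array to 6.12 on a fasted male array, and the medians of all probe sets from 6.41 to 7.23.

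Markers of other cells moved with sex as well, in comparisons that called 74.8% (fed) and 70.7% (fasted) of all probe sets tested. In fed worms the shares called were 88.9% of genes expressed across neurons, 83.3% of body wall muscle and of glia markers and 91.7% of intestine markers. Of 10 tested genes of male ciliated neurons 9 were higher in fed males and 10 in fasted males, with medians of 3.48 and 4.09. Of the 13 with a probe set, 12 had no fed hermaphrodite array above the filter value and 11 had no fasted one. Passing the filter mostly through males favoured a male excess among the 10. Over all 13, without the filter, the medians were 3.039 and 3.425. The summed signal of the 13 ran from 6329 to 7433 in fed males and from 259.6 to 336.9 in fed hermaphrodites. Of 18 tested genes expressed across neurons 15 were higher and 1 lower in fed males, with a median of 1.69 (13 higher and 2 lower after median centring), and their summed signal ran from 27340 to 29600 in fed males and from 10160 to 11190 in fed hermaphrodites. The synaptic vesicle gene rab-3 was higher by 3.90 and the neuropeptide processing gene egl-3 by 2.74 in fed males. The median change of the 22 cilium genes was 0.44 in fed and 0.42 in fasted worms, against 0.13 and 0.12 over all probe sets tested. Over all 40 genes, without the filter, it was 0.88 and 0.74, against 0.18 and 0.14 over all probe sets. All 16 oocyte and maternal markers were lower in fed males under the 4 scalings, and the 14 sperm markers tested were higher, 12 of them after median centring and on hybridization controls. Of 12 body wall muscle markers 10 were higher in fed males and none lower (median 1.46, and 9 higher after median centring). Of 12 intestine markers 11 were higher and none lower (median 1.19, and 7 higher after median centring). Of 6 tested markers of sheath and socket glia 4 were higher and 1 lower (median 1.69). Over the 9 glia genes with a probe set, without the filter, the median was 0.017 in fed and -0.854 in fasted worms. The summed signal of these 9 was lower in fed males (2037 to 2126) than in fed hermaphrodites (2505 to 2800). No marker of these lists was at 0 on any array. Their part in the sex differences of the cilium genes was not tested.

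Genes for signalling in the cilia of chemosensory neurons were mostly too dim to test. Of 25 with a probe set 8 passed the filter. Of these 8 none was higher and 2 were lower in fed males, where 74.8% of all probe sets were called. The 2 were odr-4 (-0.83, adjusted p = 2.92e-05), which sends odorant receptors to cilia, and ttx-1 (-0.75), a homeobox gene of the thermosensory neuron. In fasted worms, where 70.7% of all probe sets were called, the TRPV channel gene ocr-2 was higher (1.75) and odr-4 lower (-0.73) in males. The ocr-2 change was not called under the 3 other scalings. Over all 25 genes, without the filter, the median sex change was 0.42 in fed and 0.29 in fasted worms. Over all probe sets it was 0.18 and 0.14. With fasting the diacetyl receptor gene odr-10 rose in males (2.12, adjusted p = 0.0371), a call lost after median centring and quantile normalization. Both tax-2 and gcy-7 were at 0 on a fed hermaphrodite array.

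Few cilium genes were called with fasting, and a gene not called is not shown to be unchanged. In males hyls-1 rose and none fell, 1 of 22 (4.55%) against 27.3% of all probe sets. In hermaphrodites che-12 rose and none fell, again 1 of 22 (4.55%) against 11.4% of all probe sets. The difference of the fasting responses was called for hyls-1 alone, 1 of 22 against 5.28% of all probe sets. The median change of the 22 genes was 0.33 in males and 0.35 in hermaphrodites, against 0.23 and 0.09 over all probe sets tested. Fasted and fed arrays did not overlap for 8 of the 22 genes in males (44.6% of all probe sets) and for 9 in hermaphrodites (30.2% of all probe sets).

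In fasted against fed hermaphrodites che-12 was the gene called, although no hermaphrodite array lay above the filter value for it. Its levels were 5.42, 5.64 and 5.49 in fasted hermaphrodites, against 2.60, 2.81 and 4.24 in fed hermaphrodites. The groups did not overlap, and fasted arrays agreed closely while fed arrays were spread. The rise was 2.30 ± 0.50 (adjusted p = 0.01) and was called in the 23 alternatives that tested the gene, with an adjusted p of at most 0.0389. It was 1.12 with the pseudocount at the 20th percentile and 0.56 with that at the 40th. In males che-12 stood at 6.21, 6.49 and 7.01 when fasted, against 6.03, 5.83 and 4.69 when fed, also without overlap, and the change of 1.05 ± 0.50 was not called (adjusted p = 0.146). It was called with the pseudocounts at the 20th (0.78, adjusted p = 0.0467) and 40th percentile (0.51, adjusted p = 0.0272). The difference of the che-12 responses was not called (-1.24 ± 0.71, adjusted p = 0.338). In hermaphrodites 4 of 18 genes expressed across neurons rose with fasting and none fell (22.2%, against 11.4% of all probe sets), and 2 rose under each of the 3 other scalings. In the same comparison 7 of 12 intestine markers fell and 1 rose, and 4 of 12 body wall muscle markers fell and none rose. Their part in the che-12 result was not tested.

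The centriole gene hyls-1, the counterpart of the human hydrolethalus syndrome gene, encodes a protein of the centriole that is needed to turn it into a basal body for a cilium. Its levels were 9.21, 9.33 and 9.27 in fasted males, against 8.50, 8.48 and 8.30 in fed males. In hermaphrodites they were 9.95, 9.84 and 9.98 when fasted, against 10.26, 10.17 and 10.17 when fed. The 4 groups did not overlap, with fasted worms higher than fed worms among males and lower among hermaphrodites. The rise in males was 0.84 ± 0.11 (adjusted p = 0.00016, n = 3 arrays a group, limma), the change in hermaphrodites was -0.27 ± 0.11 (adjusted p = 0.138), and the responses differed by 1.12 ± 0.15 (adjusted p = 0.00298). The change between males and hermaphrodites was -1.77 ± 0.11 in fed worms (adjusted p = 2.04e-08) and -0.65 ± 0.11 in fasted worms (adjusted p = 0.000157). These 4 calls held in the alternatives that tested them, except that the rise in males and the sex change in fasted worms were below the 2-fold minimum. All of them rest on 1 probe set, of the type that matches several transcripts, which the alternatives do not address.

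Oocyte and maternal markers moved beside hyls-1. Of 16 such genes 8 rose in fasted males and none fell (50.0%, against 27.3% of all probe sets), with a median of 0.48 (4 rose after median centring or quantile normalization), and none was called in hermaphrodites, with a median of -0.18. Their summed signal ran from 7855 to 8308 in fasted males and from 5601 to 5973 in fed males, and from 137800 to 150100 in fasted hermaphrodites and 152700 to 162300 in fed hermaphrodites. The RNA-binding protein gene oma-1 stood at 8.84 in fasted males and 7.87 in fed males (change 0.97, adjusted p = 0.000287), and its response differed from that in hermaphrodites by 1.17. Of 14 sperm markers 1 rose in fasted males and none fell (median 0.45). In fasted hermaphrodites none rose and 2 fell (14.3%, against 11.4% of all probe sets), with a median of -0.55. None was called in hermaphrodites on hybridization controls. The summed sperm signal ran from 1505 to 2332 in fasted hermaphrodites and from 1704 to 6162 in fed hermaphrodites. The median difference of the responses was 0.90 for sperm markers and 0.63 for oocyte and maternal markers. No marker of these lists was at 0 on any array. Their part in the hyls-1 result was not tested.

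None of the 5 motor genes tested was called with fasting in either sex. The klp-20 levels were 6.53, 7.29 and 6.61 in fasted males, against 6.21, 6.16 and 5.98 in fed males. The groups did not overlap, and the change of 0.69 ± 0.25 missed the threshold (adjusted p = 0.0581). With the replicate number as a block it was called (adjusted p = 0.0244), as it was without the variance trend (0.0414), with array weights (0.0239) and without fasted male replicate 1 (0.84, adjusted p = 0.0487). In hermaphrodites klp-20 stood at 7.01, 7.42 and 7.02 when fasted, against 6.59, 6.87 and 6.40 when fed (0.53 ± 0.25, adjusted p = 0.214), and a second probe set gave 0.11 in males and -0.19 in hermaphrodites. The klp-11 change was 0.02 in males and 0.48 in hermaphrodites. Of its other probe sets that passed the filter, the brighter gave 0.44 and 0.56 and the dimmer gave -0.63 and -0.25. The dynein gene che-3 stood at 7.07, 6.48 and 7.19 in fasted males, against 6.30, 5.87 and 4.19 in fed males, and at 5.82, 6.58 and 6.16 in fasted hermaphrodites, against 5.54, 2.88 and 5.50 in fed hermaphrodites. Fasted arrays were above fed arrays in both sexes. The changes of 1.46 ± 0.69 in males (adjusted p = 0.143) and 1.55 ± 0.69 in hermaphrodites (adjusted p = 0.186) were not called, and that in males was called with the pseudocount at the 40th percentile (0.71, adjusted p = 0.0248) and without fed hermaphrodite replicate 2 (adjusted p = 0.0438).

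Other genes were called with fasting under some settings only. The change of bbs-5 in males was 0.79 ± 0.33 (adjusted p = 0.102) and that of osm-6 was 0.66 ± 0.29 (adjusted p = 0.114), and both were called with array weights (0.0317 and 0.0386). The dyf-7 change in males was -0.49 ± 0.22 (adjusted p = 0.129), and it was called after median centring (-0.68, adjusted p = 0.0435) and quantile normalization (-0.73, adjusted p = 0.0344). In hermaphrodites dyf-5 stood at 5.88, 4.83 and 4.26 when fasted, against 1.87, 5.98 and 2.31 when fed. Fed replicate 2 was the highest of the 6 arrays, and without it the change of 1.60 ± 0.87 (adjusted p = 0.282) became 2.90 (adjusted p = 0.00518). Below the filter, nphp-4 stood at 4.89, 3.91 and 5.20 in fasted hermaphrodites, against 2.48, 2.23 and 3.54 in fed hermaphrodites, a change of 1.92 ± 0.52 (adjusted p = 0.0398 in the fit without the filter, in which 2 of 40 genes and 7.34% of all probe sets were called). Its second probe set gave -0.77.

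The other ciliary genes that were listed beside the members gave a mixed picture between the sexes and few calls with fasting. Of 27 with a probe set 21 passed the filter. Of these 5 were higher and 6 lower in fed males, and 4 higher and 7 lower in fasted males, against 3 and 10, and 3 and 12, after median centring. That is 52.4% called in each feeding state, against 74.8% and 70.7% of all probe sets. Among them xbx-3 (3.69) and the kinase gene cdkl-1 (2.83) of the transition zone were higher in fed males, and dyf-17 (-3.02) and ttll-4 (-1.89), a tubulin polyglutamylase gene, were lower. In males 4 rose with fasting and none fell (4 of 21, against 27.3% of all probe sets, and 1 rose after median centring), and none was called in hermaphrodites, against 11.4% of all probe sets. The risen genes were rab-8 (0.75, adjusted p = 0.0191), a GTPase gene of membrane traffic to the cilium, ift-43 (0.74, adjusted p = 0.00503), an IFT-A gene, ttll-4 (0.66) and the dynein light chain gene dyrb-1 (0.54). The daf-19 gene, which encodes the factor that switches on ciliary genes, stood at 8.69 in fasted males, 8.50 in fed males, 9.03 in fasted hermaphrodites and 8.76 in fed hermaphrodites and was not called on the deposited scale. It was called lower in males after median centring (-0.80 in fed and -0.97 in fasted worms, adjusted p = 0.000569 and 0.000125) and on hybridization controls (-0.47 and -0.51, adjusted p = 0.0375 and 0.0272). None of 8 additional transition zone genes with a probe set passed the filter.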

How the data were processed

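Per the submitters' processing notes the authors made the values with MAS5, of which no version is given, and the deposited table holds log2 signals. Taken back from log2, the 2% trimmed mean was 500.1 to 500.2 on every array, and 1171 values were exactly 0. Detection calls were not used here. The number of arrays limits the precision. Of 22625 probe sets, 77 controls were left out, 20766 had 1 gene, 887 several and 895 none. Names were updated by gene ID to assembly WBcel235. Of the 40 probe sets shown, 9 are of the type that matches several transcripts and 3 of the type that shares probes with other sequences. The 9 are those of osm-5, dyf-3, che-11, osm-3, che-3, nphp-1, hyls-1, tub-1 and che-12.

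Group means of 12 arrays were fitted with limma 3.58.1 in R 4.3.3 (eBayes with trend, two-sided, Benjamini-Hochberg within each comparison). The labels call the samples biological replicates of independent experiments. Tables were made in Python 3.11.15 (pandas 2.3.3 and numpy 2.4.6) and plots with matplotlib 3.10.9. The fit was tested on simulated data. The genes and lists were chosen with earlier results of these data known. All genes of the list were described, and of other lists at most 4 called genes per comparison, by size of change, plus pkd-2, rme-2 and daf-19 as checks.

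Deviations from group means were correlated across probe sets for arrays with the same replicate number. The values of r were 0.119 to 0.274 between fasted and fed arrays of a sex and 0.0525 to 0.204 between the sexes. Arrays with unlike numbers were not compared, so these values do not show whether arrays were paired. The main fit used no pairing. Fasting calls over all probe sets rose with the replicate block from 1816 to 2495 in hermaphrodites and from 4352 to 5327 in males. Alternatives were 2 pseudocounts (20.1 and 64.6, the 20th and 40th percentile of the signal), no filter or a stricter one, 3 scalings, 4 fits with another estimate of the spread or the replicate block, the mean of all probe sets of a gene, a 2-fold minimum and leaving out each array.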

Additional observations from a re-analysis of the deposited data

Results flagged for a closer look

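The fasting response of hyls-1 differed between the sexes by 1.117 (log2, male minus hermaphrodite; limma interaction, adjusted p = 0.00298). It rose by 0.84 in males and changed by -0.27 in hermaphrodites, in which the change itself was not called.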

How the results depend on the processing

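Of 110 pairs of cilium gene and comparison 20 were called. Of these 13 were called in each alternative that tested them, the 2-fold minimum left out and the 60th percentile filter testing hyls-1 alone, 7 were lost in at least 1, and 24 pairs not called became so in at least 1. The number of cilium genes called for fasting in hermaphrodites (1) was 2 with no filter and 0 with the 60th percentile filter, which left 1 gene to test, and 1 to 2 when each array was left out. For fasting in males (1) it was 3 and 2 with pseudocounts at the 40th and 20th percentile, 2 after quantile normalization, after median centring and without trend, 4 with array weights, 0 with the 2-fold minimum, and 1 to 2 when each array was left out. It was 2 with the replicate block, which otherwise changed no call of these genes in the fasting comparisons. With the block the sex calls were 11 in fed worms, with dyf-3 and klp-20 gained, and 8 in fasted worms, with ifta-1 gained and che-11 lost. For the sex difference it was 1 in each state with the 60th percentile filter, 13 in fasted worms with no filter, and 6 to 10 (fed) and 5 to 9 (fasted) when each array was left out, 5 without fasted hermaphrodite replicate 3 or fasted male replicate 1. The change of ifta-1 in fed worms, 0.03, was -0.595 and called after quantile normalization (adjusted p = 0.0293). Over all probe sets, fasting calls with the 2-fold minimum were 999 of 1816 in hermaphrodites and 1495 of 4352 in males. Those for the difference of the responses (840) were 463 after median centring, 354 on hybridization controls, 1522 with array weights, 1641 with the block, 500 with the 2-fold minimum and 428 to 899 when each array was left out. The causes were not tested. Most of these genes lie near the dim end of the scale, where changes shrink with a pseudocount.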
